A study of Mus musculus with 4 samples.

Results

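Oxidative phosphorylation genes were described across the cell types of the mouse vagal ganglia. They were chosen by name from the 17289 genes of the single-cell expression table, as the symbols that start with mt-, Ndufa, Ndufb, Ndufc, Ndufs, Ndufv, Uqcr, Cox4, Cox5, Cox6, Cox7, Cox8 or Atp5, without the Ndufaf assembly factors. The rule found 91 genes. The mitochondrial genome encodes 13 of them, and 78 are nuclear. The nuclear genes comprise 36 of complex I, 8 of complex III, 17 of complex IV, 15 of complex V, and Atp5s and Atp5sl, which carry the family's symbol.

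The respiratory chain of the inner mitochondrial membrane passes electrons from NADH to oxygen through complexes I, III and IV and pumps protons, and complex V uses the proton gradient to make ATP. Complexes I, III, IV and V are assembled from proteins of both genomes, so their subunits depend on transcription in the mitochondrion and in the nucleus. Neurons spend much of their ATP on ion pumping, and sensory neurons also supply long axons with mitochondria.

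The jugular and nodose ganglia hold the cell bodies of vagal sensory neurons and were taken from mice at 5 weeks of age. Droplet-based 3′ sequencing gave 4 libraries and 1825 annotated cells. Libraries wild-type unsorted 1 and 2 came from C57BL6 mice without sorting. Libraries Vglut2Cre-Tomato sorted 1 and 2 came from cells sorted by flow cytometry for tdTomato, from mice that carried the allele Slc17a6tm2(cre)Lowl and the B6.Cg reporter Gt(ROSA)26Sortm14(CAG-tdTomato)Hze. Slc17a6 drives the Cre, so tdTomato marks cells with present or past activity of Slc17a6, which encodes the glutamate transporter Vglut2. The number of animals behind a library is not given in the sources used here, so p-values measure only the spread between these libraries. The authors' annotation places the cells in 27 clusters, 18 of nodose neurons (NG1 to NG18) and 6 of jugular neurons (JG1 to JG6), besides satellite glia, endothelial cells and sympathetic neurons. There were 1459 nodose neurons, 245 jugular neurons, 51 satellite glia, 51 endothelial cells and 19 sympathetic neurons.

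Values are UMIs (counted molecules) per 10000 UMIs of a cell, averaged over the cells of a type in a library. Libraries are listed as wild-type unsorted 1, wild-type unsorted 2, Vglut2Cre-Tomato sorted 1, Vglut2Cre-Tomato sorted 2. They held 270, 930, 328 and 297 cells, with a median of 63794, 33395, 53574 and 54929 UMIs per cell, and 1 cell barcode occurred in 2 libraries. Median depth was 41372 UMIs in nodose neurons, 37707 in jugular neurons, 9930 in the glia and 9670 in endothelial cells. The labelled types carried their defining genes: P2rx2 averaged 4.74 per 10000 in nodose and 0.186 in jugular neurons, Prdm12 averaged 1.65 in jugular neurons, Apoe 796 in satellite glia and Cldn5 45.1 in endothelial cells. The sympathetic cluster carried Npy (28.0 and 50.9), Dbh (22.0 and 16.8) and Hand2 (5.74 and 7.31) in the unsorted libraries, its only source. Values are shares of a cell's total, so less of one RNA and more of all the others cannot be told apart.

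The coding sequence of the mitochondrial genome leaves some of its genes hard to separate by 3′ reads. The 3′ end of mt-Atp8, a small subunit of complex V, overlaps the start of mt-Atp6, the proton channel subunit, over 43 bases at chrM:7927-7969 (plus strand, GRCm38.p6, GENCODE). The shared stretch is shown because a read within it cannot be assigned to either gene:

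mt-Atp8 and mt-Atp6: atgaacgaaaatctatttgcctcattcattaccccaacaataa

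mt-Nd4l and mt-Nd4 share 7 bases in the same way, mt-Atp6 and mt-Co3 share 1, and mt-Nd5 and mt-Nd6 share 14 on opposite strands. Values of these pairs are uncertain where the counting split or dropped shared reads.

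Upstream sequences are shown for 3 nuclear members whose values recur below: Ndufb6, a complex I subunit that was high in the NG12 neurons, Cox6a1, a complex IV subunit that was higher in the sorted libraries, and Cox7a1, the heart and muscle isoform of a complex IV subunit, which differed between neuron types. The windows end just before the annotated start, run 5′ to 3′ on the gene's strand and come from RefSeq (GRCm38.p6). They lie at chr4:40279422-40279671 (minus strand), chr5:115348982-115349208 (minus strand) and chr7:30183921-30184143 (plus strand). Capitals mark a match, on either strand, to GCGCATG (the core of the motif of NRF1, a regulator of nuclear respiratory genes) or CCGGAAG (a core of ETS factor motifs).

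Ndufb6: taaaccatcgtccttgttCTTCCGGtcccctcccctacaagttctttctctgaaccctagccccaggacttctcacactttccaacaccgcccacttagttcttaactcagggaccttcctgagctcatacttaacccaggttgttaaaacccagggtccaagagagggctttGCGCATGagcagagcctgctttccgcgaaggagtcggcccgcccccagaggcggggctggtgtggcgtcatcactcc

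Cox6a1: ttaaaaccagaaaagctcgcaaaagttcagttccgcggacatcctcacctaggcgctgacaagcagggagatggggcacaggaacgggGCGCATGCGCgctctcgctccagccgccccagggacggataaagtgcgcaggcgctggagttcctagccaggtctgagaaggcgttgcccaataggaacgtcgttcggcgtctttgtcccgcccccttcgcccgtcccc

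Cox7a1: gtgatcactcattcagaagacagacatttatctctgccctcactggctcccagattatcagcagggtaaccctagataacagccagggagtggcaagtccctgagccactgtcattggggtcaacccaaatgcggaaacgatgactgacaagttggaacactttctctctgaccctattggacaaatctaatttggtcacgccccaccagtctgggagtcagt

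In the 250 bases before the start, read on both strands, GCGCATG occurred in 9 of the 66 nuclear members with a window (13.6%) and in 3.68% of 27025 genes. CCGGAAG occurred in 11 of 66 members (16.7%) and in 7.83% of all genes, and AAGATGG, the core of a YY1 motif, in 2 of 66 (3.03%) and 5.18%. The capitals of Cox6a1 hold GCGCATG on both strands, as 2 overlapping matches, and a CCGGAAG match can run into an AAGATGG match through the letters AAG. The window of Cox7a1 held none of these letters. A match describes the letters only.

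Nodose neurons carried more mitochondrial-encoded transcripts than jugular neurons, and slightly more of the nuclear-encoded ones. The 13 mt genes summed to 854, 819, 836 and 934 per 10000 UMIs in nodose neurons (861 ± 51.0, SD, n = 4) and to 433, 449, 499 and 777 in jugular neurons (539 ± 161, SD, n = 4). The groups did not overlap, and the Vglut2Cre-Tomato sorted 2 library stood apart among the jugular values. The 78 nuclear genes summed to 353, 359, 382 and 363 in nodose neurons (364 ± 12.7) and to 318, 323, 327 and 297 in jugular neurons (316 ± 13.4), again without overlap. These nodose values include the cluster NG12, described below, which had the highest nuclear level. The other 1387 nodose neurons averaged 341 over cells, so part of the nuclear difference lies in NG12. The mt to nuclear ratio averaged 2.37 ± 0.168 in nodose and 1.72 ± 0.601 in jugular neurons, where it was 1.36, 1.39, 1.53 and 2.62.

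**Figure D1:**
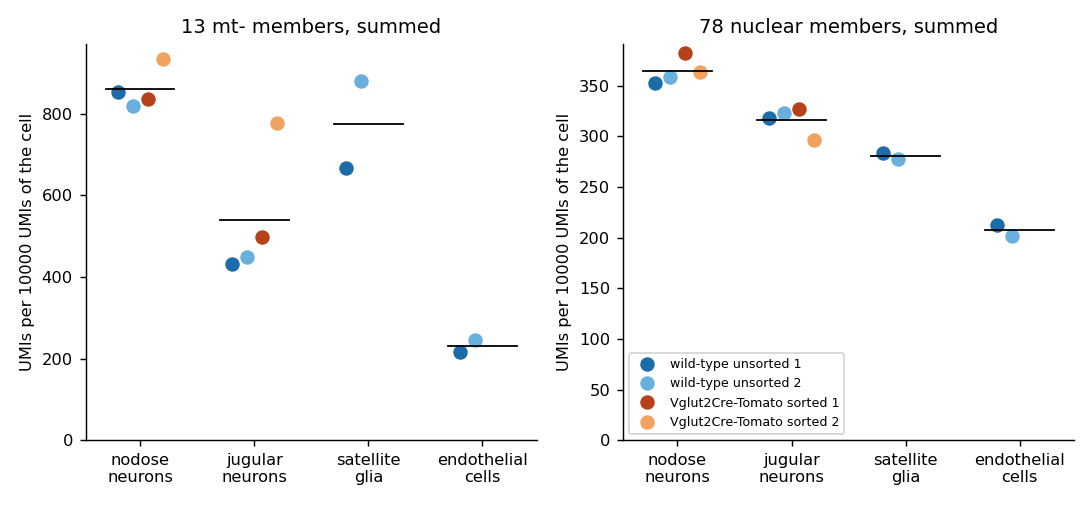
Summed levels of the 13 mitochondrial-encoded and the 78 nuclear-encoded genes (vertical axes, UMIs per 10000) by cell class, 1 point per library with at least 10 cells of the class and a black line at their mean. Endothelial cells had the lowest sums of both kinds, at 230 and 207, and the jugular mt sum of the Vglut2Cre-Tomato sorted 2 library, at 777, lies away from the other jugular points.

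The nodose and jugular profiles of each library were compared gene by gene with limma, with the library as a block, on log2(mean + 1), a scale that understates the change of genes near 0. A gene passed at a Benjamini-Hochberg adjusted p under 0.05 over all genes tested. Of 8833 genes, 25.2% passed as higher in nodose neurons and 19.1% as lower. All 13 mt genes were tested and 12 passed as higher. Their median log2 difference, mt-Nd6 included, was 0.75, against 0.01 over all genes. Clusters and ganglion identities were drawn from the same transcripts, so these tests show only how even a difference was across libraries.

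The complex I subunit mt-Nd5, part of the proton-pumping membrane arm, was at 18.0, 20.9, 9.81 and 13.98 per 10000 in nodose neurons and at 2.87, 4.99, 2.20 and 4.84 in jugular neurons. Every nodose value lay above every jugular value, and the log2 difference was 1.82 (SE 0.12, adjusted p = 3.32e-06). Another membrane-arm subunit, mt-Nd4l, was at 5.78, 9.58, 3.76 and 5.15 against 0.947, 2.59, 0.944 and 1.92, with a log2 difference of 1.43 (SE 0.10, adjusted p = 4.6e-06). These were the mt genes past 1 on the log2 scale, which 0.589% of all genes passed upward. The other mt genes differed less: mt-Nd1 rose by 0.92, mt-Co1, the catalytic subunit of complex IV, by 0.71, and mt-Atp6 by 0.43 (adjusted p = 0.00533). mt-Atp6 was at 169, 164, 186 and 188 in nodose against 102.4, 116, 135 and 183 in jugular neurons, so the sorted 2 jugular value overlapped the nodose range. mt-Nd6, the 1 protein gene on the light strand, averaged 0.267 and 0.230 per 10000 and did not pass (0.04, adjusted p = 0.234).

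**Figure D2:**
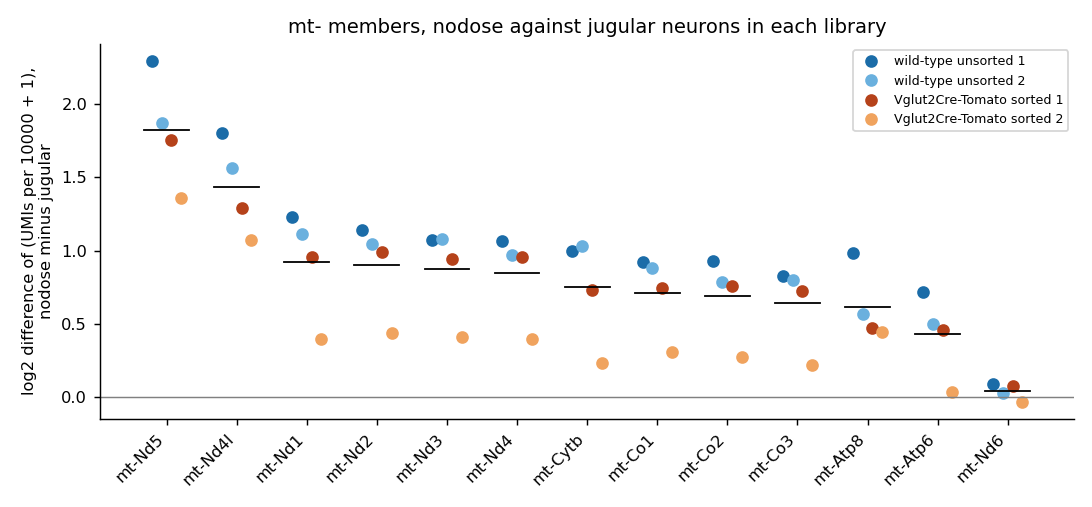
Log2 difference between nodose and jugular neurons (vertical axis) of each mitochondrial-encoded gene (horizontal axis) in each of the 4 libraries (points), on the log2(mean UMIs per 10000 + 1) scale, with the fitted difference as a black line. mt-Nd5 and mt-Nd4l differ most, at 1.82 and 1.43 in the fit, mt-Nd6 least, at 0.04, and the points of the Vglut2Cre-Tomato sorted 2 library are the lowest for each gene.

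Among the nuclear genes 74 of 78 had a mean high enough to be tested, 36 passed as higher in nodose neurons and 4 as lower, with a median log2 difference of 0.14. Those not tested were Cox4i2, Cox6b2, Cox7b2 and Ndufa4l2, which are tissue-restricted isoforms. By complex, 15 of 36 genes of complex I passed as higher and 3 as lower, 6 of 8 of complex III as higher, 7 of 13 of complex IV as higher and 1 as lower, and 8 of 15 of complex V as higher. No nuclear gene passed 1 on the log2 scale. Without the library block 3 nuclear and 8 mt genes passed as higher.

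Cox6c, a small complex IV subunit, was at 14.4, 15.9, 13.1 and 13.1 in nodose and at 10.9, 11.8, 8.20 and 8.34 in jugular neurons, with no overlap and a log2 difference of 0.50 (SE 0.06, adjusted p = 0.000175). Uqcr10, a complex III subunit, differed by the same amount (6.19, 7.68, 5.51 and 5.67 against 4.27, 5.55, 3.55 and 3.33). Cox5a, Atp5g3, which encodes the membrane ring of complex V, and Cox4i1, the common isoform of a complex IV regulatory subunit, rose by 0.43, 0.42 and 0.42. Ndufa4, a subunit first assigned to complex I and now placed in complex IV, went the other way: it was at 8.09, 8.85, 13.9 and 11.8 in nodose and 11.5, 12.4, 16.2 and 13.3 in jugular neurons. The groups overlapped across libraries, but jugular was higher within each library (log2 difference -0.32, SE 0.07, adjusted p = 0.00478). The other genes that passed as lower were Ndufs4 (-0.27), Ndufv1 (-0.18) and Ndufv3 (-0.15), all of complex I.

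Cox7a1 was low in nodose neurons and lower still in jugular neurons. It was at 0.358, 0.528, 0.346 and 0.263 per 10000 in nodose neurons and at 0.0288, 0.0266, 0.0246 and 0.0102 in jugular neurons. All nodose values were higher, and the log2 difference was 0.42. The gene reached the filter on low values only through nodose neurons, where it is high, so the difference is a description. It had a UMI in 809 of 1459 nodose and 20 of 245 jugular neurons. With every cell thinned to 10000 UMIs, which left out 18 nodose and 2 jugular neurons, the shares were 24.4% (95% exact binomial interval 22.2 to 26.7%) and 2.47% (0.911 to 5.30%). These intervals cover counting error only. Satellite glia, thinned in the same way, had it in 3 of 23 cells.

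Other genes of energy metabolism, in lists chosen with earlier results known, followed in part. Of the TCA cycle genes, which supply NADH to complex I, 12 of 16 passed as higher in nodose neurons, among them the pyruvate dehydrogenase genes Dlat (0.41) and Pdha1 (0.35) and the isocitrate dehydrogenase gene Idh3a (0.34). Complex II, which belongs to both the cycle and the chain, had 3 of 4 higher: Sdha (0.48), Sdhb (0.26) and Sdhd (0.13). Cytochrome c and the carriers had 4 of 6 higher, including Cycs (0.37), which encodes cytochrome c, and Slc25a3 (0.34), the phosphate carrier. Of glycolysis 10 of 20 passed as higher and 2 as lower, with Eno2 at 0.73 and Hk1 at 0.61. Genes that express the mitochondrial genome gave 2 higher and 1 lower of 13. Lrpprc, which binds mitochondrial mRNAs, was at 1.47, 1.89, 0.840 and 0.809 in nodose and 0.379, 0.523, 0.197 and 0.317 in jugular neurons (0.71, SE 0.07, adjusted p = 3.35e-05). Tfam, which packages and transcribes mitochondrial DNA, did not pass (0.05). Among the regulators 3 of 9 were higher and 3 lower, with Ppargc1b at 0.20, Esrra at 0.14, Hif1a at -0.19 and Ppargc1a at -0.09. Of the assembly factors, 2 of 12 for complex I were higher and 1 lower, and 4 of 23 for complexes III, IV and V were higher. The satellite glia markers moved with the comparison, since 4 of 4 tested passed as higher in nodose neurons with a median of 0.41, and their part in the result was not tested.

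Satellite glia, which wrap the neuron bodies, and endothelial cells were compared with nodose neurons in the 2 unsorted libraries, where at least 10 cells of each type were available. These cells held fewer UMIs, and dissociation response genes were higher in them, in 6 of 8 for glia and 7 of 8 for endothelial cells. The part of depth and dissociation in the values that follow was not tested.

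Satellite glia had mt sums of 667 and 881 per 10000, around the 854 and 819 of nodose neurons in the same libraries, and nuclear sums of 283 and 278, below the 353 and 359 of the neurons. Of 10679 genes tested, 15.7% passed as higher in glia and 34.0% as lower, and with median centring 22.6% and 25.4%. Of the 13 mt genes 1 passed as higher and 3 as lower, in both directions a smaller share than of all genes before centring. The lower ones were all of complex I, which holds 7 of the 13. They were mt-Nd1 (log2 difference -0.91, adjusted p = 0.000954), mt-Nd5 (-0.73) and mt-Nd4l (-0.56). mt-Nd1 was at 56.1 and 68.0 in glia and at 129 and 106 in nodose neurons, without overlap. mt-Nd6 was the higher one, at 0.502 and 0.604 against 0.170 and 0.264 (0.35, adjusted p = 0.0037). Without the library block 1 mt gene was lower, and among cells with at most 15% mitochondrial UMIs 5 were.

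Of the nuclear genes 5 passed as higher in glia and 27 as lower of 77 tested, with a median of -0.20 against -0.07 for all genes. The share that was lower was near the 34.0% of all genes. Complex IV had 10 of 16 lower and 1 higher, and complex V 3 of 15 lower. Cox5a was at 2.53 and 2.73 in glia and at 6.86 and 6.34 in nodose neurons (-1.06, SE 0.09, adjusted p = 0.000119). Cox7a2l, which takes part in joining complexes III and IV into supercomplexes, was at 3.25 and 2.67 against 7.34 and 6.73 (-1.02). Both genes separated the cell types without overlap. Uqcrh, Cox5b, Ndufb8 and Cox7a2 fell by 0.89, 0.87, 0.80 and 0.70 on the log2 scale. The 5 higher genes were Ndufa13 (0.70), Ndufa7 (0.48), Cox6b2 (0.46), Ndufs8 (0.40) and Ndufb11 (0.36), of which Cox6b2 reached the filter on low values only through glia, so that its call supports nothing. Ndufa13, a complex I subunit, was at 8.72 and 11.1 in glia and at 5.84 and 5.55 in the neurons. Cox6b2, the testis isoform of a complex IV subunit, was at 0.464 and 0.353 in glia and at 0.0180 and 0.0325 in nodose neurons, and at 10000 UMIs per cell it had a UMI in 9 of 23 glia (39.1%, 19.7 to 61.5%) and 35 of 1441 nodose neurons (2.43%, 1.70 to 3.36%).

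Among the other genes of the pathway, Ucp2, an uncoupling protein of the inner membrane, was at 1.66 and 1.31 in glia and 0.0584 and 0.0716 in nodose neurons (1.22). Its nodose values lay under the filter on low values, so this difference is a description. Cycs (-1.19), Slc25a4, the ADP/ATP carrier of excitable tissue (-1.09), Atpif1, the inhibitor of complex V (-1.30), and Lrpprc (-1.17) were lower. Of the TCA genes 2 of 17 passed as higher and 9 as lower, and of glycolysis 3 of 19 as higher and 10 as lower, with Ldhb at 1.85 and Aldoc at 1.63.

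Endothelial cells had the lowest levels of both kinds, with mt sums of 215 and 245 and nuclear sums of 213 and 202. Of all genes 21.3% passed as higher than in nodose neurons and 35.9% as lower, and with median centring 27.6% and 28.9%. Of the 13 mt genes 12 passed as lower, 11 of them by at least 1 on the log2 scale (5.86% of all genes), with mt-Nd5 at -2.30, mt-Nd1 at -2.25 and mt-Co3 at -1.95. mt-Nd1 was at 23.0 and 24.7 in endothelial cells, the lowest of the 3 types. mt-Nd6 did not pass (0.06, adjusted p = 0.498). Of the nuclear genes 52 of 77 passed as lower and 4 as higher, with a median of -0.48 against -0.06 for all genes. By complex the lower genes were 23 of 36 in complex I, 5 of 8 in complex III, 12 of 16 in complex IV and 11 of 15 in complex V. Cox7c was at 5.17 and 5.07 in endothelial cells and at 13.9 and 16.7 in nodose neurons (-1.41, SE 0.11, adjusted p = 6.1e-05). Atp5g1, of the complex V ring, was at 2.37 and 2.25 against 7.33 and 7.63 (-1.36). Cox8a, Ndufb8, Cox5a and Atp5k fell by 1.23, 1.23, 1.18 and 1.12 on the log2 scale.

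The genes higher in endothelial cells were led by 2 isoforms that are known to be induced by low oxygen in other cells. Ndufa4l2, a paralogue of Ndufa4, was at 0.991 and 1.11 in endothelial cells and at 0.00174 and 0.000679 in nodose neurons (a log2 difference of 1.03). It had a UMI in 24 of 51 endothelial cells (47.1%, 32.9 to 61.5%), in 4 of 1459 nodose neurons (0.274%) and in 0 of 51 glia, which allows a share of up to 5.88%. Cox4i2, an isoform of Cox4i1, was at 1.41 and 0.676 in endothelial cells and at 0.0354 and 0.0294 in nodose neurons (0.96), with a UMI in 19 of 51 endothelial cells (37.3%), 131 of 1459 nodose neurons (8.98%) and 6 of 51 glia. At 10000 UMIs per cell the endothelial shares were 6 of 20 for Ndufa4l2 and 9 of 20 for Cox4i2, against 1 and 28 of 1441 nodose neurons. Ndufa7 (0.67) and Ndufa9 (0.36), both of complex I, were the other higher genes. Ndufa4l2 and Cox4i2 reached the filter on low values only through the endothelial cells, where they are high, so their differences are descriptions and their calls support nothing.

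Markers of pericytes, the contractile cells around capillaries, moved with these isoforms. Within the endothelial cluster 26 of 51 cells had at least 3 of 6 pericyte markers, and all of them also had Cldn5. Ndufa4l2 averaged 1.95 in those cells (21 with a UMI) and 0.151 in the other 25 (3 with a UMI). Cox4i2 averaged 1.77 (18 cells) and 0.0392 (1 cell). Their mt sums were 269 and 200 and their nuclear sums 206 and 205. With those cells left out, the log2 difference of Ndufa4l2 was 0.19, and Cox4i2 fell under the filter on low values. The lower counts were then 12 mt and 47 nuclear genes.

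The 2 non-neuronal types were also compared with each other, in the same fit and with shared libraries. Glia were higher in 13 of 13 mt genes, 11 by at least 1, beside 15.3% of all genes higher, 2.7% by at least 1, and 19.6% lower. mt-Co3, a core subunit of complex IV, was at 116 and 145 in glia and at 30.0 and 31.2 in endothelial cells (2.05, adjusted p = 1.79e-05). Of the nuclear genes 33 of 77 were higher in glia and 5 lower. Ndufa13 led the higher ones (1.18), followed by Uqcr11 and Cox7c (both 0.94) and Atp5k (0.85). The lower genes were Ndufa4l2 (-1.03) and Cox4i2 (-0.84), again tested only through the endothelial cells, Cox7a2l (-0.82), Uqcrb (-0.40) and Ndufa9 (-0.35).

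Sorted and unsorted nodose neurons differed in a subset of genes from both genomes. Genotype, sorting and library preparation cannot be told apart here. Of 8883 genes 16.0% passed as higher in the sorted libraries and 10.7% as lower. Of the mt genes 1 was higher and 4 lower, and of the nuclear genes 19 of 74 were higher and 3 lower. With either sorted library left out, limma lets the lone sorted library vary like the unsorted ones. No member then passed, and few of all genes did. Without Vglut2Cre-Tomato sorted 1, the median log2 difference was 0.07 over the mt genes, 0.05 over the nuclear genes and 0.01 over all genes. Without Vglut2Cre-Tomato sorted 2, it was -0.23, 0.14 and 0.002.

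Among the mt genes, mt-Atp8 was at 2.33 and 5.42 in the unsorted libraries and at 0.802 and 1.36 in the sorted ones (-1.16, SE 0.22, adjusted p = 0.003). mt-Nd3 was at 9.87 and 16.6 against 4.86 and 6.40 (-1.07). The sorted values were below the unsorted ones for both, and the unsorted libraries also differed from each other. mt-Nd5 (-0.68) and mt-Nd4l (-0.65) were the other lower genes. mt-Co3 was higher, at 128 and 114 unsorted and 154 and 172 sorted (0.43, adjusted p = 0.00315), but among cells with at most 15% mitochondrial UMIs the difference was 0.16 (adjusted p = 0.174), and with limma-voom on the UMIs 0.29 (adjusted p = 0.284).

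Among the nuclear genes, Uqcrc1, a core subunit of complex III, was at 1.40 and 1.34 unsorted and at 3.02 and 2.97 sorted (0.75, SE 0.09, adjusted p = 0.000149). Atp5b, the catalytic subunit of complex V, was at 7.38 and 6.30 against 11.9 and 11.9 (0.72, adjusted p = 0.00441). Ndufs7, Ndufv1, Cox6a1 and Ndufa11 rose by 0.66, 0.62, 0.58 and 0.56. Complex I had 11 of the 19 higher genes and 36 of the 74 nuclear genes tested. The 3 lower ones encode small proteins: Cox7c was at 13.9 and 16.7 unsorted and 7.98 and 8.41 sorted (-0.82), Atp5e, the epsilon subunit of complex V, was at 6.75 and 6.52 against 3.80 and 4.27 (-0.60), and Uqcrh was at -0.48.

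Transcript length moved with this comparison. Over 73 nuclear members with a length, the Spearman correlation of the log2 difference with transcript length was 0.45, a description across genes, and over all genes it was -0.34. The 25 longest members (1129 to 4715 bases) had a median of 0.28 with 10 higher and 0 lower. The 24 shortest (371 to 683 bases) had -0.03 with 4 higher and 2 lower. All genes of the same lengths had medians of 0.03 (1138 higher and 510 lower of 5606) and -0.12 (15 higher and 43 lower of 126). The part of length in the result was not tested. Satellite glia markers were lower in the sorted libraries, with 4 of 4 tested passing, a median of -1.33 and Apoe at -3.19. Their part in the result was not tested. Glycolysis genes were higher in 15 of 20, led by Eno1 (1.15) and Aldoa (0.91), and TCA genes in 7 of 16.

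Whether the nodose to jugular difference itself differed between sorted and unsorted libraries was tested as an interaction with limma. Of 9494 genes 0.158% passed. Of the members 0 of 13 mt and 0 of 74 nuclear genes passed, and 10 mt and 13 nuclear genes had an unadjusted p under 0.05. Such a p was found for 1078 of all 9494 genes. All 13 mt genes were on the side of a smaller difference in the sorted libraries, with a median of -0.37, where the Vglut2Cre-Tomato sorted 2 jugular neurons had the high mt level given above.

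Between the 24 neuron clusters, the mt and nuclear levels were only weakly related. Over libraries with at least 5 cells of a cluster, the mt level ran from 423 (NG12) to 1233 (NG13), and the nuclear level from 258 (NG18) to 778 (NG12). The low mt level of NG12 rests on 16 cells almost without mt UMIs, since its other 56 cells averaged 799. The Spearman correlation between them was 0.05 over 24 clusters and 0.19 over the 23 without NG12. Both levels share the cell's total as denominator. The endothelial cluster lay below all neuron clusters in both (230 ± 20.7 and 207 ± 7.46).

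**Figure D3:**
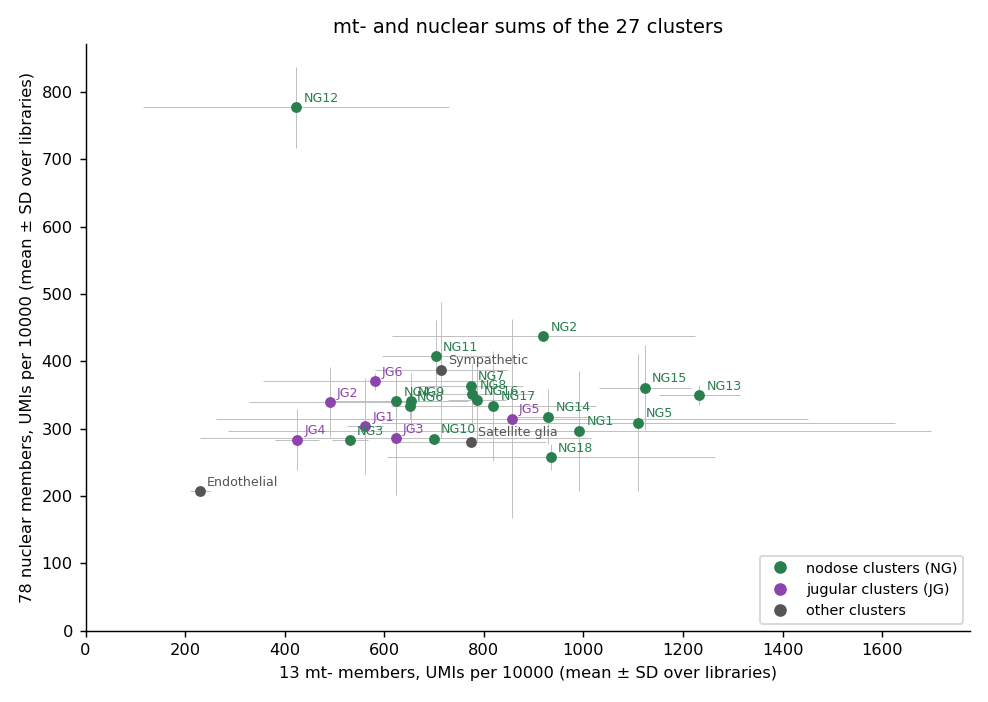
Mean mt level (horizontal axis) against mean nuclear level (vertical axis), both in UMIs per 10000, for each cluster of the annotation, with SDs over libraries. NG12 stands alone at a nuclear level of 778, while the other nodose clusters lie between 258 and 438, and NG13 and NG15 lie at the right with mt levels of 1233 and 1124.

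The order at the top of the mt levels was NG13 (1233 ± 81.3), NG15 (1124 ± 92.7), NG5 (1110 ± 516), NG1 (992 ± 706) and NG18 (934 ± 329). These neighbours lie within each other's spread, and NG5, NG1 and NG18 varied widely between libraries. In NG1 the mean rests on the Vglut2Cre-Tomato sorted 1 library, whose 6 cells averaged 1806. At the low end were JG4 (425 ± 44.5) and JG2 (490 ± 163), with NG12 beside them only when its 16 cells almost without mt UMIs are counted. JG2 was at 400, 417, 410 and 734, the last being the Vglut2Cre-Tomato sorted 2 library. The nuclear level was at 438 in NG2 and 408 in NG11, the next below NG12.

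NG13 and NG15 carried high mt levels in every library. NG13 summed to 1276, 1320, 1138 and 1196, and NG15 to 1182, 1131, 991 and 1192. Each of 14 clusters with enough cells was set against the other neurons of its ganglion. Over these fits 10.8% of the tests of all genes passed as higher and 15.2% as lower. In NG13 12 of 13 mt genes passed as higher (6.96% of all genes higher, 16.7% lower), led by mt-Nd4l (1.15) and mt-Nd5 (1.09), and in NG15 12 of 13 (10.1% higher, 21.0% lower), led by mt-Nd5 (1.11). mt-Nd6 did not pass in either (0.04 and 0.02). The mean of mt-Nd5 was 33.1 in NG13 and 31.9 in NG15, then 19.1 in NG2, and lowest in JG2 at 2.36. The nuclear genes did not follow: NG13 had 2 higher and 12 lower of 75, the lower ones all of complex I, and NG15 had 2 higher and 5 lower. One of the 2 in NG15 was Cox7a1 (0.51).

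**Figure D4:**
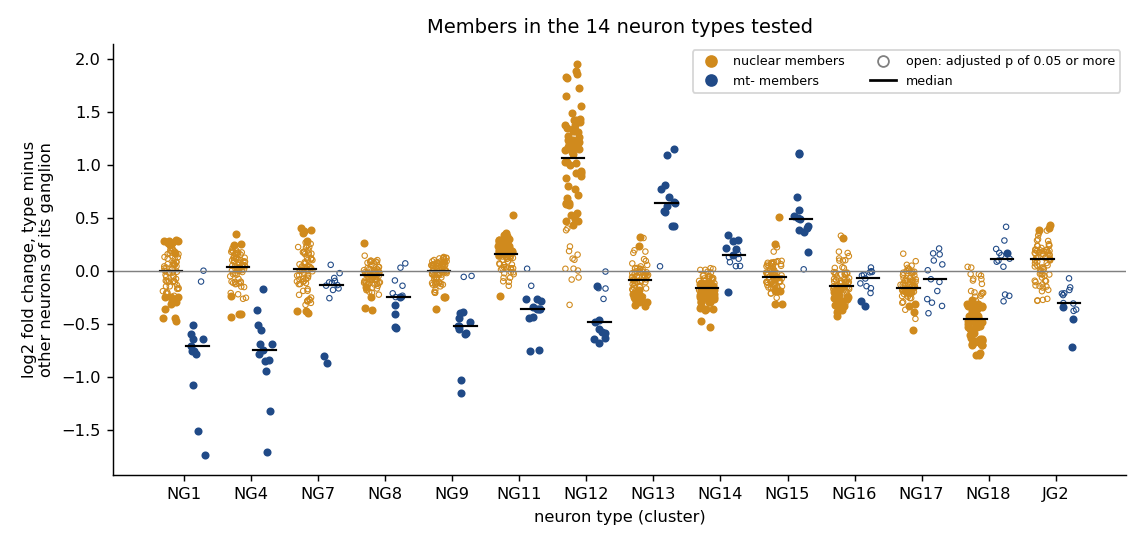
Log2 fold change of each member (points, vertical axis) in each of 14 neuron types (horizontal axis) against the other neurons of its ganglion, with nuclear-encoded genes in orange, mitochondrial-encoded genes in blue, points filled where the test passed, and black lines at medians. NG12 has 61 nuclear genes higher and 9 mt genes lower, NG13 and NG15 each have 12 mt genes higher, and NG18 has 53 nuclear genes lower.

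NG18 and NG14 were low in nuclear genes. NG18 had 53 of 74 lower (7.92% of all genes higher, 12.1% lower). Cox6c was at 9.94, 10.4, 7.32 and 6.22 in NG18 and at 14.7, 16.2, 13.5 and 13.4 in the other nodose neurons (-0.80, SE 0.15, adjusted p = 0.000724), without overlap, and Ndufa4 was at -0.77. The mt level of NG18 was 646 and 658 in the unsorted and 1160 and 1274 in the sorted libraries. NG14 had 44 nuclear genes lower (14.5% higher, 19.2% lower), with Ndufa4 at -0.53, and 6 mt genes higher and 1 lower. NG11 showed the opposite: 34 nuclear genes higher and 1 lower (18.2% higher, 15.6% lower), with Cox5a at 0.53, and 11 mt genes lower, with mt-Nd4l at -0.75.

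In the remaining clusters tested, several counts were near the share of all genes, which is given in brackets. In NG4 13 mt genes were lower (12.6% of all genes lower), in NG1 11 (31.2% of all genes in either direction) and in NG9 11 (7.9% lower), with mt-Nd5 at -1.71, -1.74 and -1.15. Of the 74 nuclear genes tested, 3 were higher and 4 lower in NG4, 8 higher and 10 lower in NG1, and 0 higher and 3 lower in NG9. With profiles of at least 5 cells, which brings further libraries in, the counts were 7 in NG4 and 2 in NG1. NG8 had 5 mt genes lower (13.2% of all genes), NG7 2 (10.5%), JG2 3 (18.0%) and NG16 2, beside 19 nuclear genes lower (17.8%). In NG17 limma passed 0 mt genes, and 5 nuclear genes as lower (15.6%). At an unadjusted p under 0.05 were 1 mt gene and 3239 of all 8603 genes.

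Cox7a1 had its own order over clusters. It averaged 1.76 in NG12, 0.86 in NG15, 0.51 in NG13, 0.46 in NG16, 0.40 in NG17 and 0.24 in NG14, at most 0.21 in the other nodose clusters and at most 0.04 in any jugular cluster. Satellite glia had 0.34.

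NG12, a group of 72 neurons, stood apart in its nuclear genes. They summed to 746, 812, 711 and 842 per 10000 (778 ± 60.1), with 11, 47, 9 and 5 cells. The next cluster, NG2, was at 438. Of the NG12 cells 67 (93.1%) were above 500, and of the other 1387 nodose neurons 145 (10.5%). Per 10000 non-mitochondrial UMIs the NG12 level was 814.

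The test of NG12 rests on the unsorted libraries, since the sorted ones held fewer than 10 of its cells. Of 8646 genes 8.04% passed as higher and 20.0% as lower. Of the nuclear members 61 of 74 passed as higher, 40 of them by at least 1 on the log2 scale (1.21% of all genes), with a median of 1.06. By complex these were 32 of 36 in complex I, 6 of 8 in complex III, 12 of 13 in complex IV and 11 of 15 in complex V. Adjusted p-values are not printed for NG12, because with 2 libraries limma's estimate of the spread leans on the other genes.

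Ndufa4 was at 27.9, 32.6, 26.6 and 22.7 in NG12 and at 6.86, 7.21, 13.5 and 11.6 in the other nodose neurons (1.96, SE 0.19). Uqcrb, a small complex III subunit, was at 10.8, 10.9, 9.92 and 11.4 against 2.06, 2.35, 3.33 and 3.05 (1.89). Cox6b1, which faces the intermembrane space side of complex IV, was at 25.0, 26.2, 23.3 and 29.8 against 6.56, 6.13, 9.14 and 8.12 (1.86). In all 4 libraries, the 2 sorted ones that the test did not use included, NG12 lay above the rest for these genes. The sorted NG12 values rest mostly on cells almost without mt UMIs. These were 5 cells beside 4 others in Vglut2Cre-Tomato sorted 1, and all 5 in Vglut2Cre-Tomato sorted 2. Ndufb6 (1.83) and Cox7b (1.82) were next. Cox7a1 was at 1.60, 2.69, 1.61 and 1.13 against 0.281, 0.379, 0.307 and 0.245 (1.22).

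Some core subunits of complexes I and III passed, but the nuclear members that did not pass included core and catalytic subunits. Among them in complex I were the core subunits Ndufs1 (0.02) and Ndufv1 (0.02) and the accessory Ndufa10 (0.19), in complex III the core subunits Uqcrc1 (0.23) and Uqcrc2 (0.15), and in complex IV Cox7a2l (-0.32). In complex V these were the catalytic head subunits Atp5a1 (-0.08) and Atp5b (0.11), and Atp5e (0.38) and Atp5g2 (0.40). Atp5s and Atp5sl also did not pass. In the sorted libraries, which the test did not use, Atp5b was at 22.1 and 27.6 in NG12 against 11.6 and 11.5, and Uqcrc1 at 5.66 and 6.18 against 2.94 and 2.90. These sorted NG12 values, too, rest mostly on the cells almost without mt UMIs. The 24 shortest members had a median of 1.27 with 23 higher, the next 24 had 1.06 with 23 higher, and the 25 longest had 0.53 with 15 higher. All genes of the same lengths had medians of 0.37 (76 of 131 higher), 0.20 (212 of 462 higher) and -0.06 (331 of 5403 higher). The part of length in the result was not tested. The Spearman correlation with transcript length was -0.41 over the members and -0.46 over all genes.

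Of the mt genes of NG12 9 passed as lower, with a median of -0.48 and mt-Nd2 at -0.68. In the unsorted libraries used, 6 cells almost without mt UMIs entered the NG12 profiles. Without them the mt sums were 724 and 790, against 854 and 819 in all nodose neurons. With profiles of at least 5 cells and such cells left out, 7 mt genes passed as lower and mt-Nd2 was at -0.35. Related lists followed the nuclear genes only in part. Complex II had 2 of 4 higher, cytochrome c and carriers 3 of 6, the assembly factors of complex I 1 of 12 and of complexes III, IV and V 6 of 24, TCA genes 2 higher and 2 lower of 16, and glycolysis 4 higher and 4 lower of 19.

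NG12 also held cells almost without mitochondrial-encoded RNA. Its mt sum was 466, 757, 459 and 10.6 per 10000, and the last value is that of the 5 cells of the Vglut2Cre-Tomato sorted 2 library. Of the 1825 cells 17 had under 1% of their UMIs from mt genes, a limit chosen after seeing the values, and 16 of these were NG12 cells: 4, 2, 5 and 5 by library. Their highest share was 0.199%, and the lowest among the other 56 NG12 cells was 1.64%. The remaining cell belonged to JG2 (0.617%). The lowest share in any other cell was 1.09%.

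These 16 cells kept the high nuclear level. Their nuclear sums averaged 552, 679, 762 and 842 by library, and over cells the median was 720.8, against 832 in the other NG12 cells and 305 in the other nodose neurons. Their median depth was 13155 UMIs, against 47395 in the other NG12 cells. Cox6b1 had a median of 24.1, 27.5 and 5.57 in the 3 sets of cells, and Ndufa4 26.3, 32.9 and 6.19. Uqcrb had 10.3, 10.5 and 2.01, and Ndufb6 10.6, 11.9 and 2.24, so these genes stayed near the level of the other NG12 cells. Not all members did: Cox6c had medians of 27.4, 42.9 and 12.1, and Cox7b 11.8, 18.4 and 3.4. In the 16 cells these, like Cox7a1, lay between the other NG12 cells and the other nodose neurons. Other RNAs also differed: the summed glycolysis list had medians of 159, 48.8 and 54.1, and Gapdh 32.8, 7.54 and 6.95. The 16 cells were not alike in the long noncoding RNA Malat1, which ran from 0.670 to 1402 with a median of 3.91 and a mean of 218, against a median of 101.9 and a mean of 110.7 in the other NG12 cells. Meg3 and Snhg11, also noncoding, likewise had lower medians (0.837 against 22.5, and 1.90 against 6.69) but higher means (83.1 against 23.8, and 35.3 against 7.99). Slc17a6, the glutamate transporter gene Vglut2, had medians of 0, 2.56 and 2.68, and the ribosomal protein genes 742, 743 and 832. Summed, the 4 sensory neuron markers, Slc17a6 among them, had medians of 119, 59.6 and 63.4. The 4 nodose markers had 9.06, 9.31 and 12.4. Depth and the lower level of Slc17a6 moved with the low mt level, and their part in it was not tested. With profiles of at least 5 cells and the cells under 1% left out, 63 nuclear genes were higher in NG12.

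**Figure D5:**
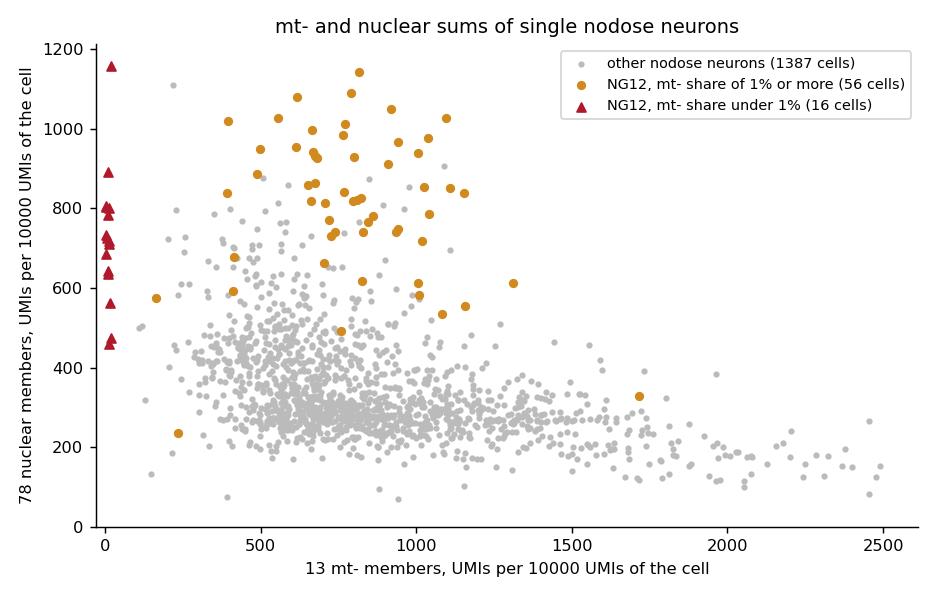
Mitochondrial-encoded (horizontal axis) and nuclear-encoded (vertical axis) sums of single nodose neurons, in UMIs per 10000, with NG12 cells marked. NG12 cells lie above most other neurons, 67 of 72 being over 500 on the nuclear axis, and 16 of them lie at the left edge with under 1% mitochondrial UMIs.

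The genes whose levels were most like the sums over the 24 neuron clusters were sought among 1776 genes. For the mt sum they were Usp9x (Spearman 0.83), Serinc1 (0.80), Syngr1 (0.80), Enah (0.79) and Nptn (0.76). For the nuclear sum they were Cycs (0.85), 2410015M20Rik (0.85), Mrpl12 (0.81), Chchd10 (0.81) and Vdac2 (0.80). These are descriptions over clusters that share libraries.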

How the data were processed

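Jugular and nodose ganglion cells were sequenced in 4 droplet libraries (single-cell RNA, 3′ counting). Per the submitters' processing notes, Cell Ranger 2.1.1, Seurat and the mm10 genome were used. The deposited expression table holds the natural log of 1 + UMIs per 10000 UMIs of a cell, and the deposited annotation gives each cell's UMI and gene count, its mitochondrial fraction and its cluster. All filters on cells and the treatment of doublets are the authors'. The series text speaks of 1896 cells, and the tables hold 1825. The lowest annotated depth was 6194 UMIs. Undoing the log gave whole UMIs for 100.0% of the values above 0, within 0.01. Raw counts had been allowed for in the plan. Since the values were normalized, the test for normalized values was used.

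Linear values were averaged over the cells of a type in a library (at least 10 cells), and genes with a mean above 0.1 in as many profiles as the smallest group held were tested with limma 3.58.1 (trend, R 4.3.3) on log2(mean + 1), with the library as a block except for sorted against unsorted, and Benjamini-Hochberg adjustment over all genes. Levels by cluster used libraries with at least 5 cells. Limma was tested on simulated data. Shares of cells carry exact binomial intervals (95%), and a count of 0 was given the limit of 3 counts. Depth per library was 16147719, 30778125, 17887507 and 17361999 UMIs, and low depth in glia and endothelial cells makes their values less precise.

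Members and gene lists were chosen with earlier results of these data known. Named nuclear genes are up to 6 per direction and comparison with the largest change among those that passed and moved the same way in every library. The isoforms Cox7a1, Cox4i2, Cox6b2 and Ndufa4l2, the cells under 1% mitochondrial UMIs and the genes described in them, mt-Nd1, Ndufs4, Ndufv1, Ndufv3 and the NG12 genes that did not pass were singled out after their values were seen. Alternatives covered the pseudocount, the filter, the denominator, centring, the library block, cell filters, limma-voom and leaving out libraries.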

Additional observations from a re-analysis of the deposited data

Results flagged for a closer look

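In groups of 4 libraries, the gap between the highest or lowest library and its nearest neighbour was compared with the whole range, and 5 of the 108 groups tested exceeded Dixon's 95% critical value (4.63%), where chance gives about 1 in 20. Of the 5, 4 set Vglut2Cre-Tomato sorted 2 apart from the other libraries. The mt genes of complex I summed to 112, 112, 107 and 190 per 10000 in jugular neurons, a gap of 0.935 of the range. The mt to nuclear ratio in jugular neurons was 1.36, 1.39, 1.53 and 2.62 (0.868). mt-Co1, the catalytic subunit of complex IV, was at 61.5, 65.9, 59.9 and 95.5 in jugular neurons (0.834). The mt sum in the jugular cluster JG2 was 400, 417, 410 and 734 (0.948). In the fifth group the wild-type unsorted 2 library was apart: mt-Atp8 was at 0.679, 3.33, 0.296 and 0.732 in jugular neurons (0.857). These values overlap in their cells, since JG2 neurons are among the jugular neurons.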

How the results depend on the processing

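No called member reversed its direction under any alternative run. Of 169 counts of passed members, 145 stayed within 1.5 times the reported count and 24 did not, and of the named members' values 1325 stayed as reported, 99 lost their call, 15 gained one and 54, which have no test, moved by more than 1 SD. Testing genes without the filter on low values, which roughly doubles the genes tested, lowered most counts: sorted against unsorted 0 mt lower (4 unadjusted) and 10 nuclear higher, over the 14 types 38 mt (from 99) and 145 nuclear (from 283), NG12 0 mt lower (6 at an unadjusted p under 0.05), NG13 6 mt higher, NG18 22, NG14 23 and NG11 20 nuclear, NG11 6, NG1 5, NG4 1 and NG9 4 mt lower. At an unadjusted p under 0.05 without that filter, 2167 of 17194 genes were lower in the sorted libraries and 3690 of 16841 in NG12. Without the library block 3 nuclear genes were higher in nodose than in jugular neurons and 1 mt gene lower in glia, where a limit of 15% mitochondrial UMIs gave 5. Leaving out a library, the sorted comparison passed 0 to 6 mt genes as lower and 0 to 22 nuclear genes as higher. With 5 cells per profile, with or without the cells under 1% mitochondrial UMIs, NG1 had 2 and NG4 7 mt genes lower.

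Of the levels, 14 of 78 moved by more than 1 SD. With summed UMIs NG12 was at 742 (mt), NG6 at 670.0 (mt), and NG2 at 432, NG7 at 388, NG18 at 282 and JG6 at 412 (nuclear). Per 10000 non-mitochondrial UMIs the nuclear levels were 480 in NG2, 298 in NG3, 355 in NG6, 390.4 in NG7, 397 in NG13, 282 in NG18, 392 in JG6 and 304 in satellite glia.

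No paired analysis was possible because sorted and unsorted libraries come from different mice and share only a number. The glia and endothelial comparisons have no residual degree of freedom with 1 library left out, and neither do NG1, NG4 and NG12. With cells under 1% left out at 10 cells a profile, NG12 had 1 library and no test.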

Other observations

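The 19 cells of the sympathetic cluster came from the unsorted libraries only and entered no comparison. Their mt sums were 809 and 620 per 10000 (11 and 8 cells), and their nuclear sums 316 and 459. Slc17a6, which marks the vagal sensory neurons, was at 0.079 and 0.065.

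Haemoglobin transcripts reached 3749.5 per 10000 in 1 NG12 cell and 3962 in 1 other nodose neuron, while the medians of both sets of cells were 0.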
